A study of Rattus norvegicus with 28 samples.

Results

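The response of INS-1 cells to 8 h of exendin-4 (Ex-4) was compared between 2 genotypes by RNA-seq. INS-1 is an insulin-secreting cell line from a rat insulinoma, and Ex-4 is an agonist of the GLP-1 receptor. The genotypes were WT and Med14 S983A, in which CRISPR knock-in replaces a serine of the Mediator subunit Med14 with alanine. The 8 libraries of the comparison, out of 28 in the series, were the 2 replicates of each genotype left untreated (CON) and of each genotype exposed to 10 nM Ex-4 for 8 h. The other 20 libraries are 1 and 16 h of Ex-4 and 1, 8 and 16 h of 10 µM forskolin (FSK), an activator of adenylyl cyclase. Cells of all groups grew in serum and were moved to serum-free medium before treatment, and no time is given for the CON cells, so 8 h of Ex-4 and 8 h in that medium cannot be told apart within a genotype. What was measured for each gene is a difference of differences, the change from CON to 8 h in Med14 S983A minus the change from CON to 8 h in WT, on the log2(TPM + 1) scale, where TPM is a transcript's abundance normalized to its length and to the library's total. It is called the difference below. A positive difference can mean a larger rise or a smaller fall in Med14 S983A, so each genotype's own response is given beside it.

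The knock-in lines were grown from single sorted cells, and the labels do not say which line gave the libraries, so the substitution and the clone cannot be told apart. The study describes its RNA-seq replicates as biological, but the labels do not say whether they were separate cultures. The p-values thus measure the spread between these libraries and may not cover that between cultures. Med14 RNA does not check the genotype, because a point substitution leaves the transcript in place. It read 21.5 and 20.3 TPM in WT at CON, 23.1 and 24.96 TPM in WT at 8 h, 19.6 and 20.3 TPM in Med14 S983A at CON and 25.5 and 25.4 TPM in Med14 S983A at 8 h, with a difference of 0.15 ± 0.09 that was not called (limma adjusted p = 0.3).

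Binding of GLP-1 or Ex-4 to its receptor on beta cells activates adenylyl cyclase, and the cAMP that is formed activates protein kinase A (PKA). PKA phosphorylates the transcription factor CREB, which turns on early genes such as Fos and Nr4a1 and genes for its own feedback control. Mediator is the large complex that carries signals from transcription factors at enhancers to RNA polymerase II, and Med14 is its scaffold. The question put to the data was which 8 h responses depend on the genotype of this scaffold.

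The 8 libraries held 42551133 to 57231981 fragments, and the ERCC spike-in sequences took 0.770% to 0.953% of them. Of 17455 gene symbols in the table, 10275 had a mean of at least 1 TPM over all 28 libraries and were tested. The beta cell markers Ins1, Ins2, Iapp, Pdx1, Nkx6-1 and Slc2a2 were all at 27 TPM or more in each of the 8 libraries, while Irx2, Pnlip, Prss1, Cpb1 and Col1a2, which mark alpha, acinar and fibroblast cells, were listed at 0 in each. The alpha cell gene Gcg was the highest of the other cell types' markers, and after it the acinar gene Ctrb1 reached 5.53 TPM, Pdgfra 3.09 TPM and Sox9 1.53 TPM. Gcg read 166 and 169 TPM at CON and 758 and 918 TPM at 8 h in WT, and 6.09 and 6.56 TPM at CON and 38.5 and 41.9 TPM at 8 h in Med14 S983A. Its difference of 0.18 was not called (limma adjusted p = 0.20). The genotypes stood far apart before any treatment: 1997 genes (19.4% of those tested) differed at CON and 1934 (18.8%) at 8 h of Ex-4. Ins2 was an extreme case, at 2885 and 2991 TPM in WT and 32620 and 37520 TPM in Med14 S983A at CON. Its change between genotypes at CON was 3.57 on log2(TPM + 1), where the SD of that change over all tested genes was 0.65.

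The difference was called for 285 genes, 2.77% of those tested. A gene was called at a limma adjusted p under 0.05 and a change of more than 1.5-fold. It was higher in Med14 S983A for 203 genes (1.98%) and lower for 82 (0.798%). Folds in the limma calls and in this paragraph are of TPM + 1, and can differ from folds of TPM where expression is low. The largest log2 sizes were 2.33 among the higher and 3.03 among the lower. On this scale 41 of the higher and 22 of the lower were beyond 2-fold. Beyond 4-fold were 2 of the higher (Ephb3 and Gas7) and 3 of the lower (Plat, Nmu and Kdr). For Gas7, under 1 TPM in Med14 S983A, edgeR on recovered fragment counts gave a log2 difference of 0.86. The split between the directions rested on the scaling. It was 128 higher and 120 lower once each library was centred on its median, and 118 higher and 148 lower once libraries were scaled on the ERCC counts. The median difference over all tested genes was 0.07 on the deposited TPM, -0.02 after centring and -0.07 with ERCC scaling, so the counts of each direction are relative to a middle that moves with the scaling. Of the 46 called genes named by the rule, none changed sign under either scaling.

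In WT, 986 genes (9.6%) changed with 8 h of Ex-4, of which 371 rose (3.61%) and 615 fell (5.99%). In Med14 S983A, 647 genes (6.3%) changed, of which 330 rose (3.21%) and 317 fell (3.09%). The excess of falls in WT rested on the scaling. After centring 517 genes rose and 373 fell in WT, and with ERCC scaling 568 rose and 328 fell. In Med14 S983A, 370 rose and 281 fell after centring, and 352 rose and 303 fell with ERCC scaling. The responses of the genotypes, which share no library, had a Pearson r of 0.78 across the 10275 genes, and genes are not independent replicates. Of the 371 genes that rose in WT, 355 had a positive value in Med14 S983A, 217 of them called. Of the 615 that fell in WT, 585 had a negative value in Med14 S983A, 227 of them called.

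**Figure D1:**
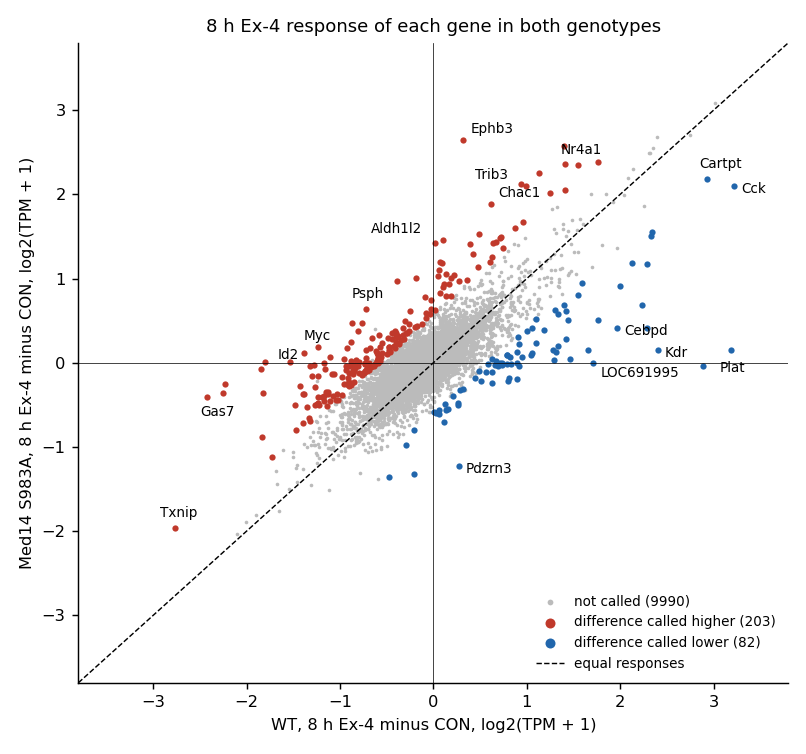
Change from CON to 8 h of Ex-4 in WT (horizontal) and in Med14 S983A (vertical), both on log2(TPM + 1), for the 10275 tested genes, each a point from group means of 2 libraries. Genes whose difference was called higher (203) lie above the dashed line of equal responses and those called lower (82) lie below it, with many of both near 0 on the Med14 S983A axis.

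The called genes fell into a few kinds. The largest was made of 106 of the 203 higher genes, which fell in WT and were not called in Med14 S983A. The median response of these genes was -0.90 in WT and -0.09 in Med14 S983A. Of the 106, 78 were called lower in Med14 S983A at CON and 45 at 8 h. Over all 10275 tested genes, 1145 were called lower at CON and 941 at 8 h. These counts use the same CON and 8 h libraries as the difference itself. In the next kind, 30 genes rose in Med14 S983A and were not called in WT, with median responses of 0.99 and 0.11. A further 19 rose in both genotypes, by medians of 1.88 in Med14 S983A and 0.93 in WT, 7 fell in both, and 40 were called for the difference but in neither genotype by itself. Psph was the only gene of the 285 that fell in WT and rose in Med14 S983A. Among the 82 lower genes, 47 rose in WT and were not called in Med14 S983A, with median responses of 0.95 and 0.09. The others were 13 that rose in both, 9 that fell in Med14 S983A and were not called in WT, and 13 called in neither. With ERCC scaling the largest kind held 58 genes and the 47 became 71.

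Part of the 285 genes were hardly expressed in at least 1 of the genotypes. In 59 of them the mean was under 1 TPM at both CON and 8 h in WT or in Med14 S983A. On log2(TPM + 1) they had little room to move in that genotype. Even so, 2 of them were called as rising in Med14 S983A while under 1 TPM there. Of those 59, edgeR on recovered fragment counts called 17, against 196 of the other 226. Most such genes that are named are described apart from the rest, but Inhbe is given with the promoters.

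Of the 17 gene lists examined, that of ATF4 target genes held the most called members. ATF4 is the transcription factor that cells turn on when amino acids run short or unfolded proteins gather, and its targets make serine and other amino acids, import them and carry the stress signal on. Of 25 measured members, 7 had a called higher difference, where 1.98% of all tested genes had one, and 0 a called lower one. The median was 0.38 beside 0.07 for all tested genes. The list's median was 0.28 after centring and 0.23 with ERCC scaling. On recovered fragment counts, edgeR called 6 members higher and 1 lower, and DESeq2 called 6 higher and 2 lower. In their own genotypes, 18 of the 25 rose in Med14 S983A and 0 fell, while in WT 10 rose and 1 fell.

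Psph catalyses the last step of serine synthesis (transcript NM_001009679, rn6 chromosome 12, 30514128 to 30526551). It read 129 and 133 TPM in WT at CON, 77.4 and 81.04 TPM in WT at 8 h, 53.7 and 51.5 TPM in Med14 S983A at CON and 82.5 and 82.7 TPM in Med14 S983A at 8 h. The replicates of each group lay close together, the CON groups were far apart, and at 8 h the genotypes met at the same level from opposite sides. The response was -0.72 ± 0.05 in WT and 0.64 ± 0.05 in Med14 S983A, a difference of 1.36 ± 0.07 (limma adjusted p = 5.2e-13). Psat1, the enzyme one step earlier in the same pathway, read 85.8 and 85.1 TPM in WT at CON, 94.6 and 93.7 TPM in WT at 8 h, 139 and 127 TPM in Med14 S983A at CON and 273 and 282 TPM in Med14 S983A at 8 h. Its WT groups were near each other and its Med14 S983A level at 8 h was the highest of the 4 groups. The difference of Psat1 was 0.92 ± 0.07 (limma adjusted p = 3.2e-10), and it is named here to complete the count of 7, after its value was seen.

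Chac1 breaks down glutathione and is a common marker of ATF4 activity (transcript NM_001173437, rn6 chromosome 3, 111160205 to 111163425). It read 3.04 and 2.65 TPM in WT at CON, 4.87 and 4.89 TPM in WT at 8 h, 12.3 and 12.7 TPM in Med14 S983A at CON and 46.3 and 51.5 TPM in Med14 S983A at 8 h. Both 8 h libraries of Med14 S983A were above every other library, and the genotypes did not overlap at either time. Chac1 rose by 1.88 in Med14 S983A and had a WT response of 0.61, a difference of 1.27 ± 0.12 (limma adjusted p = 7.4e-08). Trib3, a pseudokinase that damps stress and insulin signals, read 1.597 and 2.299 TPM in WT at CON, 5.01 and 4.59 TPM in WT at 8 h, 7.51 and 8.27 TPM in Med14 S983A at CON and 35.1 and 39.1 TPM in Med14 S983A at 8 h. It rose in both genotypes, and its order of groups was that of Chac1. Its difference was 1.11 ± 0.13 (limma adjusted p = 1.4e-06).

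Atf3, a stress-induced transcription factor, read 3.81 and 3.86 TPM in WT at CON, 5.58 and 5.08 TPM in WT at 8 h, 3.36 and 2.94 TPM in Med14 S983A at CON and 9.196 and 10.9 TPM in Med14 S983A at 8 h. The CON groups lay near each other, and the Med14 S983A libraries at 8 h stood above the rest. Its difference was 1.02 ± 0.14 (limma adjusted p = 7.1e-06). Slc7a1, an importer of arginine and lysine, read 39.99 and 40.2 TPM in WT at CON, 44.3 and 40.1 TPM in WT at 8 h, 33.5 and 32.4 TPM in Med14 S983A at CON and 59.03 and 59.6 TPM in Med14 S983A at 8 h, a difference of 0.76 ± 0.09 (limma adjusted p = 1.1e-06). It rose in Med14 S983A and was not called in WT, and it too is named to complete the count.

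The last of the 7, the cystine importer Slc7a11, which is also on the list of NRF2 antioxidant genes, depended on the scale. It read 0.128 and 0.133 TPM in WT at CON, 1.96 and 2.04 TPM in WT at 8 h, 0.9 and 0.704 TPM in Med14 S983A at CON and 7.92 and 8.51 TPM in Med14 S983A at 8 h. Its difference was 0.95 ± 0.12 on log2(TPM + 1), 0.03 with a pseudocount of 0.1 and -0.64 by edgeR, which compares fold changes (edgeR adjusted p = 0.0748). DESeq2 called it lower, at -0.65 (DESeq2 adjusted p = 0.0287). In TPM it thus gained more in Med14 S983A, while its fold change was no larger there.

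Members of the list that were not called included Atf4 itself, with a difference of 0.52, and Asns, which makes asparagine, at 0.57. Ddit4, an inhibitor of the growth kinase mTOR, was at 0.58. Ddit3, known as CHOP, was at 0.23, and the amino acid transporter chains Slc7a5 and Slc3a2 were at 0.11 and 0.03, near the median of all genes. Cebpb was the only member with a negative difference, -0.55, which was not called. It was called lower under other settings, among them centring, ERCC scaling and edgeR.

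Aldh1l2, a mitochondrial enzyme of folate metabolism (transcript NM_001191778, rn6 chromosome 7, 26375866 to 26425838), was not on the list and behaved much like Psat1. It read 1.75 and 1.75 TPM in WT at CON, 1.85 and 2.05 TPM in WT at 8 h, 6.69 and 5.65 TPM in Med14 S983A at CON and 18.7 and 18.6 TPM in Med14 S983A at 8 h. Its WT libraries all lay at 2.05 TPM or lower and every Med14 S983A library was above them. The difference of Aldh1l2 was 1.36 ± 0.11 (limma adjusted p = 3.1e-09).

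**Figure D2:**
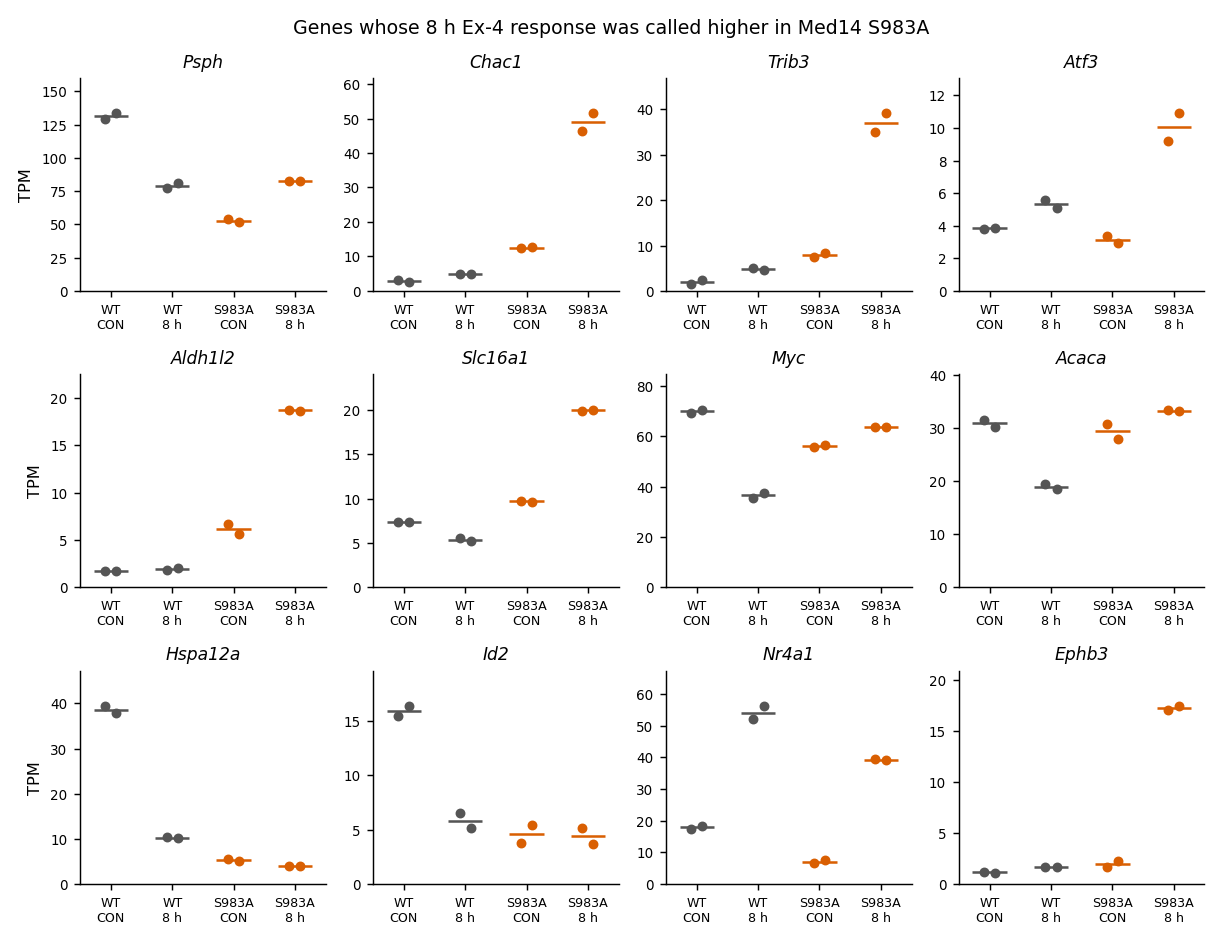
TPM of 12 genes with a called higher difference, in WT (grey) and Med14 S983A (orange) at CON and at 8 h of Ex-4, with the 2 libraries of each group as points and their mean as a bar. Psph falls from near 131 to near 79 TPM in WT and rises from near 53 to near 83 TPM in Med14 S983A, while Chac1 and Trib3 are highest in the Med14 S983A libraries at 8 h.

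Promoter sequence was searched for what the called genes share beyond their values. Promoters were taken from RefSeq on the GRCr8 build, a later build than the rn6 of the expression files, as 250 bases before and 50 bases after a gene's start. Of the tested genes, 8201 had a promoter, matched by symbol and using the first entry listed, among them 150 higher and 60 lower genes. The ATF4 site TGATGCAA, on either strand, was in 0.524% of promoters of tested genes (0.743% of all promoters in the table), in 4 of the 150 higher genes (2.67%) and in 0 of the 60 lower ones. The 4 were Chac1, Inhbe, Angptl8 and RT1-S2, of which the last 3 lie outside the rule for named genes and are named after their values were seen. Of the 7 called members of the ATF4 list, Chac1 was the only one among the 4. The Trib3 promoter held no ATF4 site, and a gene without a promoter entry could not be searched. RT1-S2 belongs to a family of near-identical genes, and its reads may be shared with them. The 250 bases before the start of the other 3 are printed to show where the site lies, at chr3:126795881-126796130 on the plus strand for Chac1, chr7:65064520-65064769 on the minus strand for Inhbe and chr8:28652305-28652554 on the plus strand for Angptl8, all on GRCr8. Capitals mark matches, on either strand, to the ATF4 site, the CREB site TGACGTCA, its core TGACG, or the AP-1 sites TGACTCA and TGAGTCA.
Chac1: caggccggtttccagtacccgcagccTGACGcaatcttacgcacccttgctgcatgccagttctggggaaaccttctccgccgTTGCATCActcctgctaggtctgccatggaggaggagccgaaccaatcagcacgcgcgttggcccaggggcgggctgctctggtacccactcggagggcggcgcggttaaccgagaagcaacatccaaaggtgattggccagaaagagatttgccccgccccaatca
Inhbe: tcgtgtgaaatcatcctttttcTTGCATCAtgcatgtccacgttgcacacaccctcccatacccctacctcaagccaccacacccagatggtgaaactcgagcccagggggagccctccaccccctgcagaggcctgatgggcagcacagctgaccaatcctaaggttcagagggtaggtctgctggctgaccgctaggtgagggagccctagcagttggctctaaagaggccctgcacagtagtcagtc
Angptl8: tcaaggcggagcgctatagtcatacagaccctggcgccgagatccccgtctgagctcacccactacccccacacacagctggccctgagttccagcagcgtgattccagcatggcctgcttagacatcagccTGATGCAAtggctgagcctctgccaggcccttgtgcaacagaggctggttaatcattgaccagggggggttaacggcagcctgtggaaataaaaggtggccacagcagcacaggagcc
A match is a description of letters and not a bound site.

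Inhbe, a subunit of activin hormones, read 0 and 0.115 TPM in WT at CON, 0.069 and 0.072 TPM in WT at 8 h, 0.189 and 0.206 TPM in Med14 S983A at CON and 1.93 and 2.52 TPM in Med14 S983A at 8 h, so the RNA was nearly absent in 6 of the 8 libraries. With WT means under 1 TPM at both times, Inhbe was among the 59 genes hardly expressed in a genotype. Its difference was 1.41 ± 0.15 (limma adjusted p = 1.9e-07). Angptl8, which codes for a secreted inhibitor of lipoprotein lipase activity, read 64.3 and 62.7 TPM in WT at CON, 71.03 and 71.6 TPM in WT at 8 h, 47.5 and 49.2 TPM in Med14 S983A at CON and 90.3 and 96.6 TPM in Med14 S983A at 8 h. The Med14 S983A libraries moved from the lowest to the highest of the 4 groups, and the difference was 0.77 ± 0.06 (limma adjusted p = 1.7e-09). The CREB site was in 3.35% of promoters of tested genes, in 0.667% of those of higher genes and in 1.67% of those of lower genes. For its core the shares were 33.6%, 21.3% and 25%. The AP-1 sites were in 3.1%, 2.67% and 5%, the NRF2 site TGACNNNGC, which overlaps the letters of the CREB core, in 15.1%, 13.3% and 25%, and the SREBP site CACCCCAC in 2.35%, 4.67% and 3.33%. These shares rest on 0 to 32 genes in the called groups.

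Myc and Acaca fell in WT and were not called in Med14 S983A. Myc, a transcription factor that drives growth (transcript NM_012603, rn6 chromosome 7, 102586313 to 102591239), read 69.4 and 70.5 TPM in WT at CON, 35.6 and 37.4 TPM in WT at 8 h, 55.5 and 56.5 TPM in Med14 S983A at CON and 63.6 and 63.6 TPM in Med14 S983A at 8 h. The WT libraries at 8 h lay below all others. Myc fell by 0.92 in WT, had a response of 0.18 in Med14 S983A, and its difference was 1.1 ± 0.07 (limma adjusted p = 1.8e-11). Acaca, the acetyl-CoA carboxylase that commits carbon to fatty acid synthesis, read 31.6 and 30.3 TPM in WT at CON, 19.4 and 18.6 TPM in WT at 8 h, 30.8 and 28.03 TPM in Med14 S983A at CON and 33.5 and 33.2 TPM in Med14 S983A at 8 h. The CON groups overlapped between genotypes, and the WT libraries at 8 h were again the lowest, with a difference of 0.85 ± 0.1 (limma adjusted p = 1.1e-06). Cyp4a8, a fatty acid hydroxylase that has near relatives in the genome, had a difference of 0.82. Acaca and Cyp4a8 were the 2 called members of 25 in fatty acid synthesis and oxidation (2.77% of all tested genes were called). The list's median difference was 0.11. Cyp4a8 rose by 0.93 in Med14 S983A, and its WT response of 0.11 was not called.

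Id2, an inhibitor of helix-loop-helix transcription factors, read 15.5 and 16.4 TPM in WT at CON, 6.48 and 5.15 TPM in WT at 8 h, 3.72 and 5.46 TPM in Med14 S983A at CON and 5.17 and 3.68 TPM in Med14 S983A at 8 h. The WT libraries at CON stood alone, and the other 3 groups overlapped. The difference of Id2 was 1.28 ± 0.201 (limma adjusted p = 5.9e-05). Hspa12a, a distant member of the Hsp70 family, read 39.4 and 37.8 TPM in WT at CON, 10.3 and 10.1 TPM in WT at 8 h, 5.56 and 5.09 TPM in Med14 S983A at CON and 3.85 and 3.99 TPM in Med14 S983A at 8 h. It fell in WT and stayed above Med14 S983A at both times, with a difference of 1.46 ± 0.09 (limma adjusted p = 3.1e-11). The clock genes Ciart and Bhlhe40, both transcriptional repressors, also fell in WT, with responses of -0.89 and -0.72, against 0.25 and 0.06 in Med14 S983A. They were the 2 called of 14 clock genes (2.77% of all tested genes were called), whose median difference was 0.10. Per3, Nr1d1, Nr1d2 and Tef, which fell in both genotypes, had differences between 0.08 and 0.42 that were not called.

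Txnip, a thioredoxin-binding protein that rises with glucose, fell in both genotypes from unequal starts. It read 329 and 312 TPM in WT at CON, 47.3 and 44.95 TPM in WT at 8 h, 55.9 and 52.9 TPM in Med14 S983A at CON and 13.5 and 13.1 TPM in Med14 S983A at 8 h. Every Med14 S983A library at CON lay just above the WT libraries at 8 h. Txnip fell by 2.77 in WT and by 1.96 in Med14 S983A, a difference of 0.81 ± 0.12 (limma adjusted p = 2.5e-05). The related arrestin Arrdc3 had a difference of 0.62, which lost its call after centring (0.53), with ERCC scaling (0.48) and by DESeq2 with ERCC size factors (0.53). It also lost the call without any of replicate 1 of WT CON, replicate 1 of WT 8 h or replicate 2 of Med14 S983A CON, at 0.45 to 0.57.

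Slc16a1 and Ephb3 gained with Ex-4 in Med14 S983A. Slc16a1 codes for the lactate and pyruvate carrier MCT1, which beta cells normally keep low (transcript NM_012716, rn6 chromosome 2, 207108552 to 207128561). It read 7.31 and 7.39 TPM in WT at CON, 5.53 and 5.23 TPM in WT at 8 h, 9.78 and 9.59 TPM in Med14 S983A at CON and 19.9 and 19.99 TPM in Med14 S983A at 8 h. No group overlapped another, and the Med14 S983A libraries at 8 h were the highest. Slc16a1 rose by 0.97 in Med14 S983A, its WT response was -0.39, and the difference was 1.36 ± 0.11 (limma adjusted p = 1.5e-09). Ephb3, a receptor tyrosine kinase for ephrins (transcript NM_001105868, rn6 chromosome 11, 83527962 to 83546674), read 1.17 and 1.08 TPM in WT at CON, 1.63 and 1.65 TPM in WT at 8 h, 1.67 and 2.18 TPM in Med14 S983A at CON and 17 and 17.4 TPM in Med14 S983A at 8 h. Both Med14 S983A libraries at 8 h stood far above the 6 others, which were all at 2.18 TPM or lower. Its difference of 2.33 ± 0.12 was the largest of the higher genes (limma adjusted p = 5.2e-13).

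The genes of the cAMP pathway itself were examined as a list of induced genes and a list of signalling parts. Among 22 cAMP early genes and CREB feedback genes, 13 rose in WT and 15 in Med14 S983A, none of the 22 fell in either, 2 had a called higher difference (1.98% of all tested genes had one) and 0 a called lower one, and the median difference was 0.07, the same as for all genes. ERCC scaling and centring each called 1 member lower. Nr4a1, an orphan nuclear receptor induced early by cAMP (transcript NM_024388, rn6 chromosome 7, 142912309 to 142920215), read 17.2 and 18.4 TPM in WT at CON, 52.1 and 56.2 TPM in WT at 8 h, 6.53 and 7.36 TPM in Med14 S983A at CON and 39.5 and 39.1 TPM in Med14 S983A at 8 h. It rose in both genotypes, and Med14 S983A stayed below WT at each time while it gained more on the log scale. The difference of Nr4a1 was 0.79 ± 0.12 (limma adjusted p = 2.8e-05). Pde4b, a phosphodiesterase that breaks down cAMP, read 3.02 and 2.38 TPM in WT at CON, 5.18 and 5.01 TPM in WT at 8 h, 3.49 and 3.399 TPM in Med14 S983A at CON and 11.2 and 11.8 TPM in Med14 S983A at 8 h, a difference of 0.77 ± 0.12 (limma adjusted p = 4.5e-05). Its CON groups were close to each other and its Med14 S983A libraries at 8 h were above all others.

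Fos, the early gene that CREB is best known for, read 2.16 and 1.91 TPM in WT at CON, 6.802 and 7.05 TPM in WT at 8 h, 0.993 and 0.958 TPM in Med14 S983A at CON and 5.23 and 5.16 TPM in Med14 S983A at 8 h. It rose in both genotypes, and its difference of 0.26 ± 0.15 was not called (limma adjusted p = 0.22). The feedback genes Crem and Sik1 had WT responses of 2.39 and 2.13 and Med14 S983A responses of 2.68 and 2.299. Ppargc1a, a coactivator of mitochondrial genes, had a difference of -0.61 that was not called. Of 31 parts of the GLP-1 receptor and cAMP machinery, Adcy8, an adenylyl cyclase, was the only one called, where 2.77% of all tested genes were. It fell in WT by 0.64 with a difference of 0.61 ± 0.09, and it lost the call with edgeR, DESeq2, centring or ERCC scaling, or when replicate 1 of WT CON was left out or replicate 2 of Med14 S983A CON, at 0.46 to 0.58. The receptor gene Glp1r had a difference of -0.24 and Grk3, a kinase that acts on such receptors, of 0.53, neither called. The ID proteins Id2 and Id4 were 2 called of 4 (2.77% of all tested genes were called). Id4 rose in both genotypes, by 1.77 and 2.38. Its difference of 0.62 was not called after centring, with ERCC scaling, by DESeq2 with ERCC size factors or without replicate 2 of WT CON (0.47 to 0.53).

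The 250 bases before the Nr4a1 start (chr7:134259888-134260137 on the plus strand) hold 4 copies of the CREB core, and those before the Cartpt start (chr2:32991236-32991485 on the minus strand), a lower gene described next, hold a full CREB site. They are printed as cAMP-induced genes of opposite difference, on GRCr8 and with capitals as before.
Nr4a1: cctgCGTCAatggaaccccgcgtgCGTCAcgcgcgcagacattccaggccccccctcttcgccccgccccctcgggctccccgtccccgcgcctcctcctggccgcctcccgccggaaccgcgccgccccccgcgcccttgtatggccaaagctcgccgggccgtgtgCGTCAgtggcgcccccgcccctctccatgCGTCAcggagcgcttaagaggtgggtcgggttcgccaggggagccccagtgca
Cartpt: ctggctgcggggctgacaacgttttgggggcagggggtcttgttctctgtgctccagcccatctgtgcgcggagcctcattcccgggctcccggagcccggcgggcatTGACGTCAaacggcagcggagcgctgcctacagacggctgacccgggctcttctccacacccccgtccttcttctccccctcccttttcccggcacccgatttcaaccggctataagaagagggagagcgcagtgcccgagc
Both genes rose in both genotypes, so a CREB site or core in this window went with a positive difference in the former and with a negative difference in the latter.

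Among the lower genes, the neuropeptides Cck and Cartpt rose strongly in both genotypes and less in Med14 S983A. Cck codes for cholecystokinin (transcript NM_012829, rn6 chromosome 8, 130120525 to 130127109) and read 24.1 and 25.5 TPM in WT at CON, 236 and 242 TPM in WT at 8 h, 33.1 and 38.5 TPM in Med14 S983A at CON and 155 and 157 TPM in Med14 S983A at 8 h. Med14 S983A began slightly above WT and ended below it, with no overlap at either time. Cck rose by 3.22 in WT and 2.099 in Med14 S983A, a difference of -1.12 ± 0.07 (limma adjusted p = 4.4e-11). Cartpt, the precursor of the CART peptides, read 7.71 and 9.07 TPM in WT at CON, 71.1 and 69.3 TPM in WT at 8 h, 10.9 and 11.6 TPM in Med14 S983A at CON and 56.2 and 53.1 TPM in Med14 S983A at 8 h. It followed the same order, with a difference of -0.74 ± 0.1 (limma adjusted p = 8.2e-06). They were the 2 called of 15 granule and neuropeptide genes (2.77% of all tested genes were called), whose median difference was 0.01. The neuropeptide genes Tac1 and Gast rose by 1.54 and 1.605 in WT and by 1.58 and 1.65 in Med14 S983A, with differences of 0.04 and 0.04.

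A second set of lower genes rose in WT and was not called in Med14 S983A. Cebpd, a transcription factor of the C/EBP family (transcript NM_013154, rn6 chromosome 11, 89008008 to 89009146), read 7.62 and 6.702 TPM in WT at CON, 30.7 and 30.8 TPM in WT at 8 h, 7.48 and 7.98 TPM in Med14 S983A at CON and 11.1 and 10.1 TPM in Med14 S983A at 8 h. The CON groups overlapped, and the WT libraries at 8 h stood above all others. Cebpd rose by 1.96 in WT, its Med14 S983A response was 0.41, and the difference was -1.55 ± 0.11 (limma adjusted p = 2.7e-10). Cd82, a tetraspanin of the cell membrane, read 46.3 and 46.6 TPM in WT at CON, 87.9 and 89.2 TPM in WT at 8 h, 45.4 and 44.2 TPM in Med14 S983A at CON and 42.5 and 44.9 TPM in Med14 S983A at 8 h. Its 2 WT libraries at 8 h were the only ones above 47 TPM, and the difference was -0.95 ± 0.06 (limma adjusted p = 1.5e-11). Cul4b, a scaffold of ubiquitin ligases, read 86.5 and 82.8 TPM in WT at CON, 172 and 179 TPM in WT at 8 h, 38.4 and 33.5 TPM in Med14 S983A at CON and 38.02 and 38.4 TPM in Med14 S983A at 8 h, a difference of -0.96 ± 0.07 (limma adjusted p = 3.6e-10). Here the Med14 S983A libraries stayed within 33.5 to 38.4 TPM, below WT at both times.

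Mustn1, a small nuclear protein known from muscle and bone, read 33.1 and 35.5 TPM in WT at CON, 82.6 and 87.3 TPM in WT at 8 h, 8.05 and 8.75 TPM in Med14 S983A at CON and 9.56 and 9.38 TPM in Med14 S983A at 8 h. Med14 S983A began far below WT and did not pass 9.56 TPM, and the difference was -1.13 ± 0.09 (limma adjusted p = 2.3e-09). The locus LOC691995, of no known function here, had responses of 1.71 in WT and 0.002 in Med14 S983A. Its difference of -1.71 ± 0.19 had a limma adjusted p of 4.7e-07. Zfp703, a zinc finger repressor, met the same description from a higher start in Med14 S983A. It read 7.302 and 7.29 TPM in WT at CON, 13.4 and 15.5 TPM in WT at 8 h, 15 and 18.2 TPM in Med14 S983A at CON and 14.6 and 13.99 TPM in Med14 S983A at 8 h, and at 8 h the genotypes overlapped (difference -1.09 ± 0.104, limma adjusted p = 4.9e-08).

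Slc2a9, a urate transporter, rose in WT from a much lower level, reading 1.48 and 1.39 TPM in WT at CON, 5.64 and 5.37 TPM in WT at 8 h, 20.1 and 20.3 TPM in Med14 S983A at CON and 24.9 and 24.9 TPM in Med14 S983A at 8 h, with a difference of -1.13 ± 0.09 (limma adjusted p = 2.1e-09). All Med14 S983A libraries were above all WT libraries. Il18, an inflammatory cytokine, rose in both genotypes, by 2.13 in WT and 1.18 in Med14 S983A, with a difference of -0.95 ± 0.14 (limma adjusted p = 1.9e-05). Pdzrn3, a ubiquitin ligase with PDZ domains, was instead a gene that fell in Med14 S983A. It read 8.85 and 8.26 TPM in WT at CON, 10.3 and 10.7 TPM in WT at 8 h, 10.01 and 9.91 TPM in Med14 S983A at CON and 3.74 and 3.64 TPM in Med14 S983A at 8 h. Its Med14 S983A libraries at 8 h were below the 6 others, and the difference was -1.496 ± 0.09 (limma adjusted p = 2.5e-11).

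**Figure D3:**
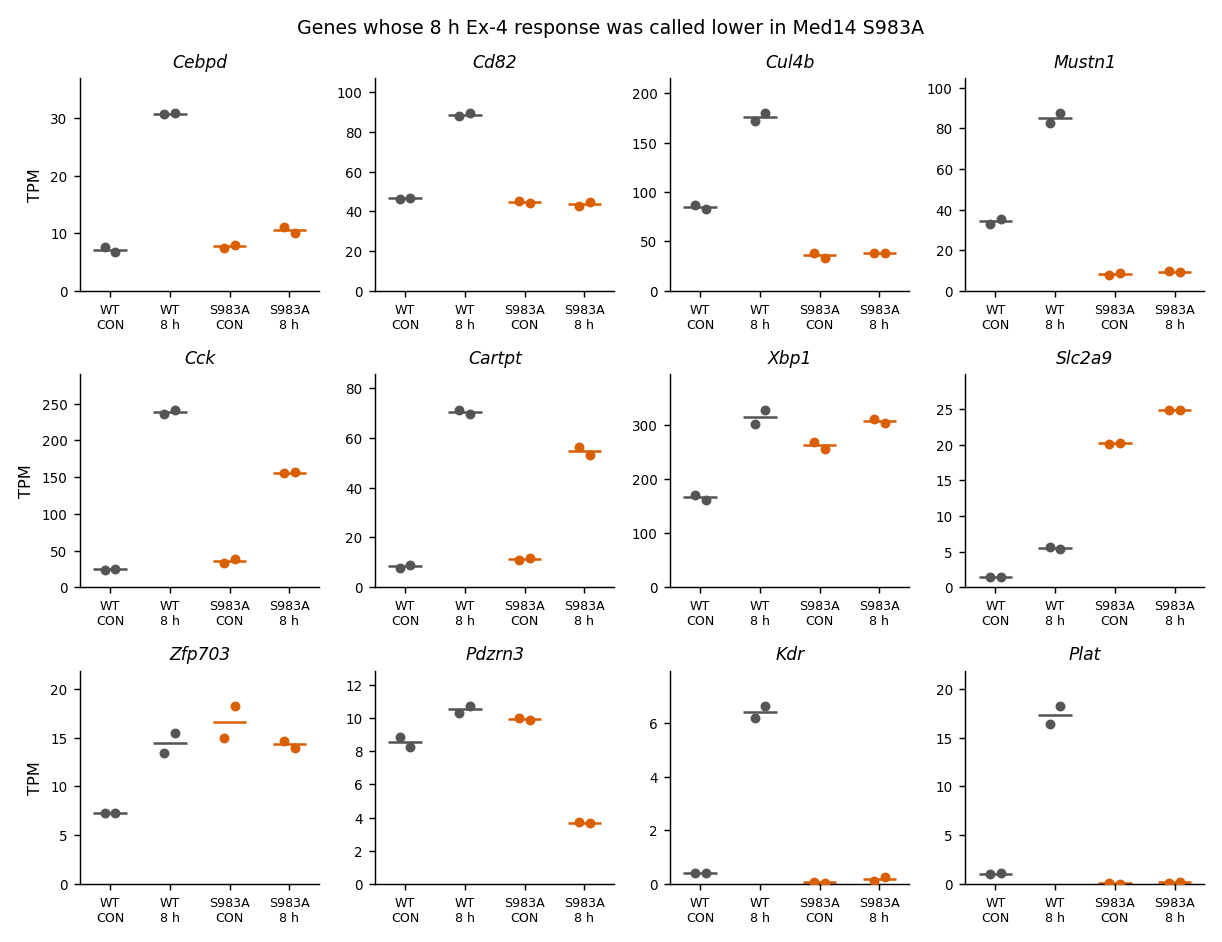
TPM of 12 genes with a called lower difference, in WT (grey) and Med14 S983A (orange) at CON and at 8 h of Ex-4, with the 2 libraries of each group as points and their mean as a bar. Cebpd, Cd82 and Cul4b are highest in the WT libraries at 8 h, Cck and Cartpt climb in both genotypes, and Kdr and Plat stay under 0.25 TPM in Med14 S983A.

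Xbp1, the transcription factor that expands the endoplasmic reticulum (ER), was also lower. It read 170.4 and 162 TPM in WT at CON, 302 and 328 TPM in WT at 8 h, 269 and 256 TPM in Med14 S983A at CON and 310.1 and 304 TPM in Med14 S983A at 8 h. Med14 S983A stood above WT at CON, and the genotypes overlapped at 8 h. Xbp1 rose by 0.92 in WT, its Med14 S983A response was 0.23, and the difference was -0.69 ± 0.06 (limma adjusted p = 2.7e-09). Of 28 ER folding genes, Xbp1 and Derl3, a channel part of ER-associated degradation, were the only ones called (2.77% of all tested genes were called). Derl3 had a difference of -0.59, which lost the call without replicate 1 of WT CON, replicate 2 of WT 8 h, replicate 2 of Med14 S983A CON or replicate 1 of Med14 S983A 8 h (-0.58 to -0.55). The median difference of the list was near 0. Of the 28, 13 rose in WT and 15 in Med14 S983A, and 0 were called as falling in either. The chaperone Hspa5, known as BiP, had responses of 1.13 in WT and 0.902 in Med14 S983A, and Hyou1 of 1.05 and 1.05.

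**Figure D4:**
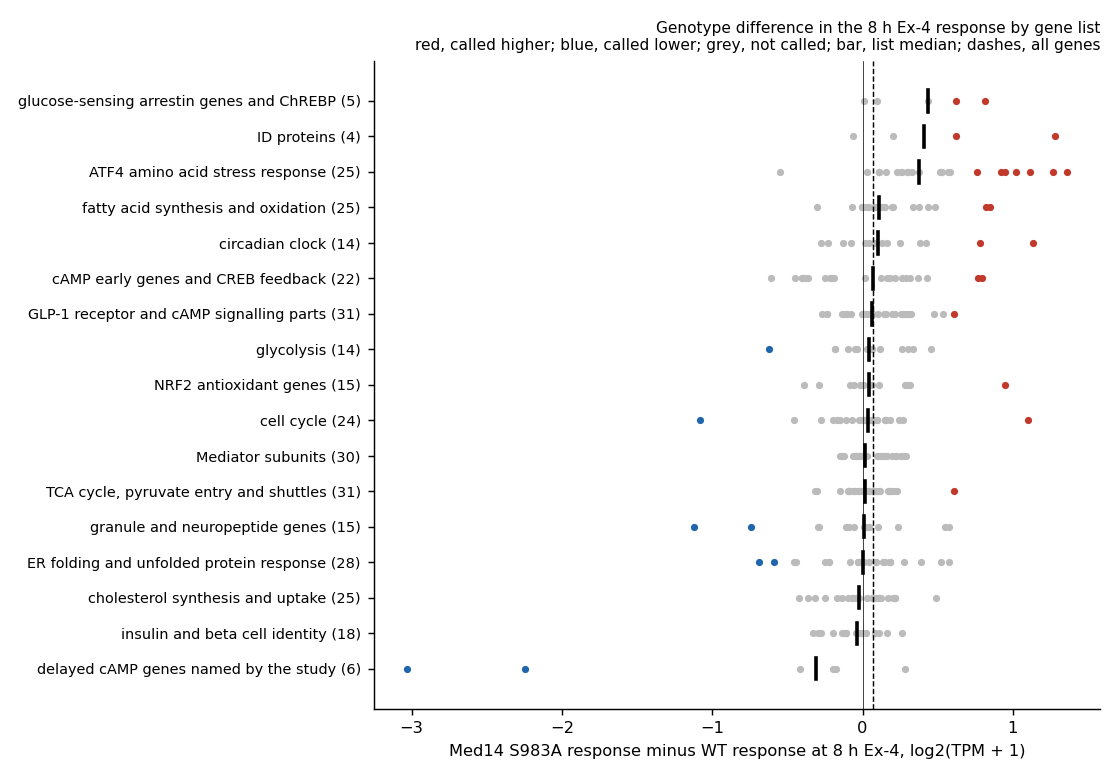
Difference of each tested member of 17 gene lists, on log2(TPM + 1), with the number of tested members in parentheses, the list median as a black bar and the median of all tested genes (0.07) as a dashed line. In the ATF4 list 7 members are called higher, while cholesterol synthesis, Mediator subunits and insulin genes hold no called member.

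Plat and Kdr had the largest negative differences of the genes named by the rule, and both were among the 59 genes that were hardly expressed in at least 1 genotype. Plat codes for tissue plasminogen activator (transcript NM_013151, rn6 chromosome 16, 74098268 to 74122858) and read 0.955 and 1.08 TPM in WT at CON, 16.4 and 18.2 TPM in WT at 8 h, 0.058 and 0.015 TPM in Med14 S983A at CON and 0.116 and 0.182 TPM in Med14 S983A at 8 h. Kdr, the receptor of vascular endothelial growth factor (transcript NM_013062, rn6 chromosome 14, 34727677 to 34787126), read 0.399 and 0.41 TPM in WT at CON, 6.19 and 6.64 TPM in WT at 8 h, 0.081 and 0.043 TPM in Med14 S983A at CON and 0.119 and 0.246 TPM in Med14 S983A at 8 h. In both cases only the WT libraries at 8 h stood above 1.08 TPM. The difference was -3.03 ± 0.13 for Plat and -2.25 ± 0.12 for Kdr (limma adjusted p = 4.7e-14 and 2.5e-12). By edgeR, on fold changes, it was -2.11 for Plat (edgeR adjusted p = 0.174) and -2.503 for Kdr (edgeR adjusted p = 0.00178). DESeq2 called Plat at -2.07 (DESeq2 adjusted p = 0.0313) but not with ERCC size factors (DESeq2 adjusted p = 0.0884), so the call for Plat depended on the count method. Kdr was called by all of these fits. Nmu, which codes for the neuropeptide neuromedin U and is named after its value was seen because it falls under the 5 TPM of the naming rule, read 0.123 and 0.452 TPM in WT at CON, 8.16 and 8.68 TPM in WT at 8 h, 0.052 and 0.026 TPM in Med14 S983A at CON and 0.025 and 0 TPM in Med14 S983A at 8 h. It too was above 0.452 TPM only in the WT libraries at 8 h, with a difference of -2.92 ± 0.15 (limma adjusted p = 5.2e-13). Osbpl6, which the study groups with Plat and Kdr as a delayed cAMP gene, had a difference of -0.42 ± 0.13 that missed the fold minimum (limma adjusted p = 0.024). Plat, Kdr and Osbpl6 were chosen by the study on cells of these genotypes, and Nmu was chosen here after its value was seen. None of these genes is independent evidence of a direction.

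Ccnd1, the cyclin of early cell cycle, is a like case. It read 0.5 and 0.36 TPM in WT at CON, 4.71 and 4.69 TPM in WT at 8 h, 0.071 and 0.086 TPM in Med14 S983A at CON and 1.15 and 0.916 TPM in Med14 S983A at 8 h. It rose in both genotypes, its difference was -1.08 ± 0.12 on log2(TPM + 1), -0.53 with a pseudocount of 0.1 and 0.203 by edgeR (edgeR adjusted p = 0.78), so its direction depended on the scale. Myc and Ccnd1 were the 2 called of 24 cell cycle genes (2.77% of all tested genes were called).

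Among the higher genes, Gas7, Pgm5, Prok2, Cyp4f1 and Selenop fell in WT and were under 1 TPM in every Med14 S983A library. Gas7, a protein of growth-arrested neurons, read 17.8 and 17.7 TPM in WT at CON, 2.6 and 2.41 TPM in WT at 8 h, 0.528 and 0.472 TPM in Med14 S983A at CON and 0.137 and 0.133 TPM in Med14 S983A at 8 h, and its difference was 2.02 ± 0.11 (limma adjusted p = 1.8e-12). Every library at 8 h was below those at CON in its genotype, and edgeR gave a difference of 0.86 (edgeR adjusted p = 0.0159). DESeq2 with ERCC size factors gave Gas7 a difference of 0.77 and did not call it (DESeq2 adjusted p = 0.095). Pgm5, a phosphoglucomutase relative, read 83.3 and 87.5 TPM in WT at CON, 18.5 and 16.5 TPM in WT at 8 h, 0.377 and 0.223 TPM in Med14 S983A at CON and 0.107 and 0.08 TPM in Med14 S983A at 8 h. Its TPM was lower at 8 h than at CON in each genotype, and a difference of 1.98 on log2(TPM + 1) became 0.58 by edgeR (edgeR adjusted p = 0.464). For the secreted prokineticin Prok2, the fatty acid hydroxylase Cyp4f1 and the selenium carrier Selenop the differences were 1.89, 1.81 and 1.26, and none was called by edgeR (edgeR adjusted p = 0.349, 0.402 and 0.976). Likewise Ccdc184, at 10.3 to 28.9 TPM in WT and at most 0.172 TPM in Med14 S983A, and Rph3a, an effector of vesicle release at under 0.5 TPM in WT, had lower differences of -1.19 and -1.12 that edgeR did not call (edgeR adjusted p = 0.925 and 0.24). In bulk RNA, fewer cells that express such a gene and less of its RNA per cell cannot be told apart.

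The remaining lists held 0 or 1 called member each at 8 h, and with 2.77% of all tested genes called, fewer than 1 would be called at that share in any of them. Of 25 genes of cholesterol synthesis and uptake, limma called 0 for the difference (11 at an unadjusted p under 0.05), edgeR 0 and DESeq2 0, and the median was -0.02. In the same list 7 genes rose in WT and 5 in Med14 S983A. Hmgcs1, the synthase that starts the pathway, read 80.8 and 78.6 TPM in WT at CON, 147 and 147 TPM in WT at 8 h, 90.1 and 79.9 TPM in Med14 S983A at CON and 128 and 135 TPM in Med14 S983A at 8 h. It was higher at 8 h than at CON in each genotype. Its difference of -0.25 ± 0.08 was under the fold minimum (limma adjusted p = 0.024).

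Of 30 Mediator subunits, limma, edgeR and DESeq2 each called 0 (6 by limma at an unadjusted p under 0.05), with a median of 0.02. Of 18 insulin and beta cell identity genes, each tool also called 0 (7 by limma at an unadjusted p under 0.05), with a median of -0.04. Ins1 and Ins2, whose sequences are near copies so that reads may be shared, had differences of -0.198 ± 0.08 and -0.13 ± 0.08. Of 14 glycolysis genes 1 was called, Aldoc, an aldolase. Its difference of -0.62 ± 0.12 lost the call without replicate 1 of WT 8 h, replicate 1 of Med14 S983A CON or replicate 2 of Med14 S983A 8 h (-0.58 to -0.49). Of 31 genes of the TCA cycle, pyruvate entry and shuttles 1 was called, Pdk1, a kinase that restrains pyruvate dehydrogenase. Its difference of 0.61 ± 0.08 was just past the fold minimum and lost the call with edgeR, DESeq2, centring or ERCC scaling, or when any was left out of replicate 1 of WT CON, replicate 2 of Med14 S983A CON or replicate 1 of Med14 S983A 8 h (0.46 to 0.58). Mdh1, Slc25a1 and Pdk2 had differences of -0.03, 0.18 and -0.302, none past the fold minimum. Of 15 NRF2 genes 1 was called, Slc7a11, described above.

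The same difference was taken at 1 h of Ex-4, 16 h of Ex-4 and 8 h of FSK. These share the 4 CON libraries with the 8 h values, so they are set side by side and not counted as agreement. At 1 h of Ex-4 it was called for 69 genes (0.672%), at 16 h for 744 (7.24%) and with FSK for 1424 (13.9%). For Ephb3 the difference was 3.62 at 1 h, 2.33 after 8 h, 2.05 after 16 h and 3.87 under FSK. Psph stood at -0.02, 1.36, 1.84 and 2.02 in the same order, and Chac1 at -0.09, 1.27, 1.21 and 0.28. The metabolic genes Psph and Chac1 thus had no called difference at 1 h, while Ephb3 did.

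Myc had values of -1.303 at 1 h, 1.1 after 8 h, 1.91 after 16 h and 2.75 under FSK, all called, with the sign at 1 h opposite to the rest. Cebpd had -2.12, -1.55, -0.34 and -2.17, and Kdr -0.77, -2.25, -0.37 and -2.87. For both, the values at 16 h were not called. Cd82 had -0.01, -0.95, -0.92 and -1.17.

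**Figure D5:**
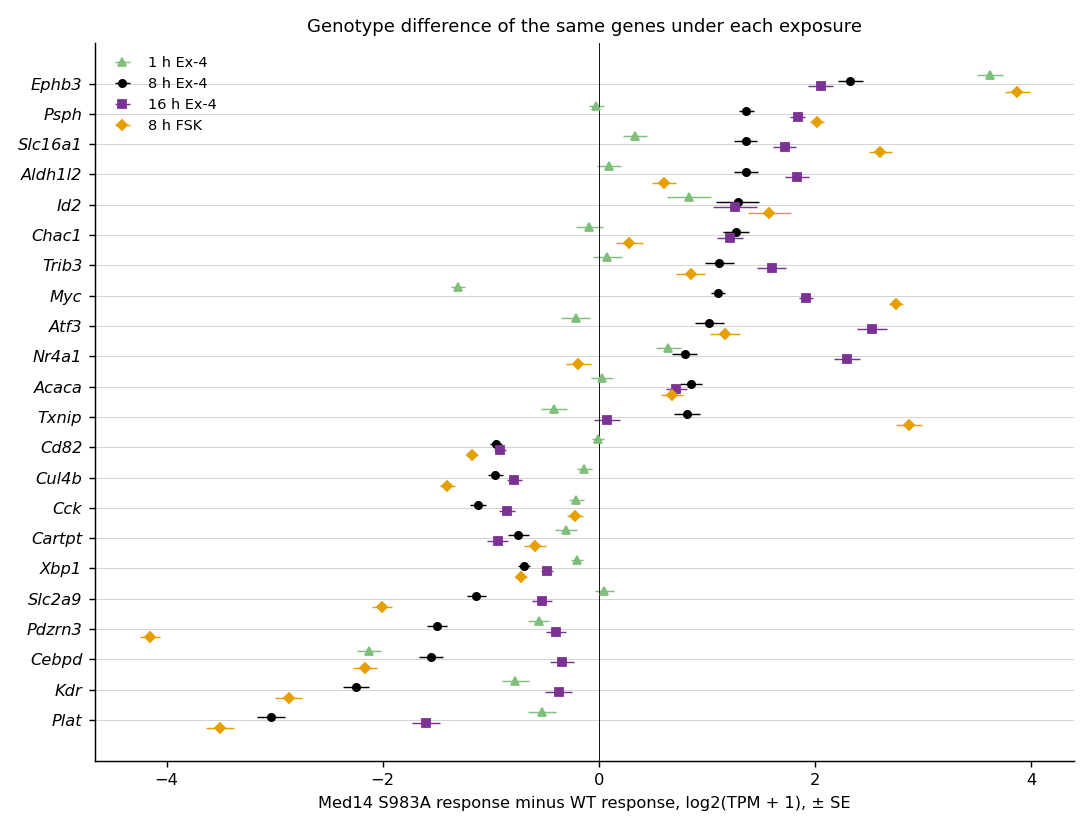
Difference between the genotypes' responses, with its SE from the fit, for 22 of the named genes at 1, 8 and 16 h of Ex-4 and at 8 h of FSK, on log2(TPM + 1). All 4 series use the same CON libraries. Myc is negative at 1 h (-1.30) and positive at the other exposures, and Txnip is near 0 at 16 h (0.08) and at 2.87 under FSK.

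Whether the difference at 16 h departs from that at 8 h was tested directly, as the change from 8 to 16 h in Med14 S983A minus that in WT, which uses no CON library. This comparison was chosen after values were seen. It was called for 277 genes (2.7%). In the ATF4 list it was called higher for 11 of 25 and lower for 0, with a median of 0.48 beside 0.02 for all genes. The gain was not particular to that list. Among cAMP early genes and CREB feedback genes it was called higher for 12 of 22 and lower for 0, with a median of 0.635. Of the ID proteins, 3 of 4 were called higher and 0 lower, with a median of 0.63. In the cholesterol list it was called lower for 13 of 25 and higher for 1, with a median of -0.60. Nr4a1, Atf3 and Slc7a11 were higher, at 1.5, 1.502 and 1.42, and Fos, which had no called difference at 8 h, was at 1.43. Kdr, Plat, Cebpd and Pdzrn3 were also called higher, at 1.88, 1.43, 1.21 and 1.1, which moved their negative differences toward 0. Hmgcs1 was called lower, at -0.82, and Aldoc at -1.58. Psph, Chac1, Id2, Cd82 and Cul4b had values from -0.05 to 0.47 that were not called.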

How the data were processed

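RNA-seq of INS-1 cells was analysed from the processed tables, 2 libraries for each of 14 groups. Reads were aligned by the authors with STAR 2.5.3a to a reference that joined rn6 and the spike-ins, and HOMER 4.11.1 gave the deposited TPM of each transcript. The deposited count table holds counts of the 92 ERCC sequences alone, so DESeq2 on gene counts (the authors' method, version 1.24.0, with ERCC size factors) was an alternative and limma on the deposited TPM the main test. The Length column, from the authors, is transcript exon length in bases. Column names carry library numbers unlike those in the labels, and columns were matched by genotype, treatment, hours and replicate.

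Of 19223 lines, ERCC rows and 1676 lower transcripts of repeated symbols were dropped, which left 17455 symbols. Log2(TPM + 1) was fitted for 10275 genes (mean of 1 TPM or more) with limma 3.58.1 in R 4.3.3 (eBayes with trend, 14 group means over 28 libraries, 14 residual degrees of freedom). Tests were two-sided with Benjamini-Hochberg adjustment over all tested genes, and errors are SE of the fit. Fragments were recovered as TPM times length, matched to the ERCC counts. At 2 reads per fragment, 100% of 163448 values below 1000 reads came out whole (tolerance 0.05 reads, 23.8% by chance), and edgeR 4.0.16 called 325 genes on them. On simulated data for this difference (10275 genes) limma recovered 96% of 2-fold and 99% of 3-fold changes with 2 wrong calls. Changes were placed only in genes above a fragment minimum, and Med14 S983A groups took the WT means of the same treatment. The simulation thus does not cover genes that differ at CON or are hardly expressed in a genotype.

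Replicates were not paired. The members, gene lists and naming rule were chosen with earlier results of these data known. Named were Med14, the 12 largest called differences each way among genes of at least 5 TPM, up to 5 called members per list, and 12 genes the study names, not all of which are reported here. Alternatives were a pseudocount of 0.1, no filter, 5 TPM, centring on the median, ERCC scaling, the 8 libraries alone, a replicate block, each library left out, no fold minimum, edgeR and DESeq2 1.42.0.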

Additional observations from a re-analysis of the deposited data

Results flagged for a closer look

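The responses of the 2 genotypes differed, by the interaction term of the fit, for 285 genes, which is what puts each gene below here. None of the explanations of these differences was tested. On log2(TPM + 1) the higher differences, in order of size, were Ephb3 2.33, Gas7 2.02, Pgm5 1.98, Prok2 1.89, Cyp4f1 1.81, Hspa12a 1.46, Psph 1.36, Slc16a1 1.36, Aldh1l2 1.36, Id2 1.28, Chac1 1.27, Selenop 1.26, Ciart 1.13, Trib3 1.11, Myc 1.1, Atf3 1.02, Slc7a11 0.95, Acaca 0.85, Cyp4a8 0.82, Txnip 0.81, Nr4a1 0.79, Bhlhe40 0.78, Pde4b 0.77, Id4 0.62, Arrdc3 0.62, Pdk1 0.61, Adcy8 0.61. The lower differences were Plat -3.03, Kdr -2.25, LOC691995 -1.71, Cebpd -1.55, Pdzrn3 -1.496, Ccdc184 -1.19, Slc2a9 -1.13, Mustn1 -1.13, Cck -1.12, Rph3a -1.12, Zfp703 -1.09, Ccnd1 -1.08, Cul4b -0.96, Cd82 -0.95, Il18 -0.95, Cartpt -0.74, Xbp1 -0.69, Aldoc -0.62, Derl3 -0.59. No group of these libraries holds 4 samples, so single libraries could not be checked as outliers.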

How the results depend on the processing

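The total of 285 called genes stayed within 1.5 times under every alternative except no fold minimum, which gave 1910 (1456 higher and 454 lower). The directions moved more. There were 53 lower genes at a mean of at least 5 TPM, 128 higher after centring, 118 higher and 148 lower with ERCC scaling, 124 lower by edgeR, 124 lower by DESeq2, and 108 higher and 126 lower by DESeq2 with ERCC size factors. Leaving out each of the 8 libraries gave 271 to 329 called genes, 183 to 247 higher and 76 to 92 lower. For WT alone, 373 genes fell after centring, 568 rose and 328 fell with ERCC scaling, 572 rose by DESeq2 and 679 rose by DESeq2 with ERCC size factors. With no fold minimum 6082 genes changed in WT (1789 rose, 4293 fell), 5197 in Med14 S983A (2282 rose, 2915 fell), 6802 differed at CON and 6590 at 8 h. Leaving out libraries gave 945 to 1082 in WT (347 to 389 rose, 575 to 720 fell), 630 to 707 in Med14 S983A (316 to 377 rose, 305 to 350 fell), 1989 to 2067 at CON and 1933 to 1960 at 8 h. Of the 285 genes, 197 (69.1%) were also called with ERCC scaling and 213 (74.7%) by edgeR. DESeq2 with ERCC size factors, the authors' kind of fit, shared the fewest, 153 (53.7%).

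A fit with the replicate number as a block called the same 285 genes, 203 higher and 82 lower, and no named gene lost or gained a call. The numbers pair nothing in the labels, and deviations of same-numbered libraries from their group means had an r of -0.05 to 0.04 across genes. Among named genes the sign turned for Slc7a11 (edgeR -0.64, DESeq2 -0.65, DESeq2 with ERCC size factors -0.73) and Ccnd1 (0.20, 0.21 and 0.14), both under 1 TPM in a group, and for Mdh1 without replicate 1 of Med14 S983A CON (0.0088, with -0.0655 without replicate 2), a value near 0. The cause of the other moves was not tested. With 2 libraries a group and under 1 TPM in a genotype, fold changes there rest on few fragments, and the spike-ins were added to a fixed mass of RNA, so levels per cell were not measured.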
